A study of Mus musculus with 6 samples.

Results

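The p38 MAP kinase module comprises 9 genes: 4 p38 kinases (Mapk14, Mapk11, Mapk12 and Mapk13), 2 activating kinases (Map2k3 and Map2k6) and 3 kinases that p38 phosphorylates (Mapkapk2, Mapkapk3 and Mapkapk5). They were chosen by gene symbol, out of 19057 genes with a named probe. Of the 9, 8 had a named probe, with 16 probes in all, 12 of which were detected on at least 1 array, and 7 of the 8 entered the tests over 9223 genes. Mapkapk5 has no named probe in the annotation used and was not analysed here. For each gene the brightest detected probe was used and its other probes served as a check.

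p38 kinases relay signals from cytokines, stress and microbial products. Upstream MAP3 kinases activate the dual-specificity kinases encoded by Map2k3 and Map2k6, and these phosphorylate the activation loop of p38. Activated p38 phosphorylates transcription factors and the substrate kinases MK2 and MK3, which stabilise short-lived cytokine transcripts. In dendritic cells (DC), the antigen-presenting cells that prime T cells, p38 activity is known to affect maturation and cytokine output. The arrays measure transcript, not kinase activity or phosphorylation.

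Bone marrow cells of C57BL/6 mice were grown with the growth factor GM-CSF (20 ng/ml), which drives marrow progenitors towards DC, and RNA was hybridised to single-colour Illumina bead arrays. The study asked what blocking p38 in the progenitors does to the DC that form. Each culture received SB202190, an ATP-competitive inhibitor of p38 alpha and p38 beta labelled as 1.5 mM (the unit stands as labelled), or its solvent DMSO at 0.1%. The 3 stages had 1 array for each treatment, 6 arrays in all: cells cultured for 2 days, which the labels call pre-DC, semi-adherent cells of day 7, called immature DC, and immature DC kept for 48 hours with the inflammatory cytokines TNF-a and IL-1b (10 ng/ml of each), called mature DC. Whether SB202190 stayed in the medium during maturation is not in the labels. Neither is whether the cultures were separate ones. No array has a replicate, so p-values and standard errors rest on how far the 6 arrays depart from added stage and treatment effects. For a stage step this is how the step differs between the treatments, and it may be partly technical.

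The number of arrays limits the precision: a stage has 2 arrays, 1 from each treatment, and a treatment has 3, 1 from each stage. An array detected 14623 to 15328 of its 45281 probes, where detected means a detection p under 0.01. The labels were checked against marker genes. Summed intensity of 13 neutrophil genes was 281531 and 267796 in the pre-DC arrays, 60608 and 46074 in immature DC, and 23318 and 24738 in mature DC (DMSO and SB202190 in each pair), and all 12 that were tested fell from pre-DC to mature DC. The sum of 17 DC genes ran the other way, from 34323 and 45391 in pre-DC through 98279 and 121757 in immature DC to 109267 and 135469 in mature DC. The bright Cd74 and H2-Ab1 weigh most in it. Of the 15 tested, 14 rose and Cd209a fell, and Flt3 and Cd24a were detected on no array. The sum of 10 macrophage genes rose too, from 3560 and 3186 in pre-DC to 29347 and 32180 in immature DC. In mature DC it was 38068 and 30841, thus higher with DMSO and lower with SB202190. The bright Cd14 weighs most in the mature DC sum. From immature to mature DC 7 of the 10 genes had a lower level and 3 a higher one, with a median log2 difference of -0.59. Itgax, which encodes the DC integrin CD11c, was not detected on either pre-DC array and was detected on the other 4. Summed B cell genes stood at 3549 and 1897 in pre-DC and at 119 to 138 on the later arrays, and erythroid genes at 6840 and 5630 against 587 to 900. In such mixed samples fewer cells of a type and less RNA per cell cannot be told apart.

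The 5 kinases detected on all 6 arrays (Mapk14, Mapk13, Map2k3, Mapkapk2 and Mapkapk3) were all lower in mature DC than in pre-DC, at an adjusted p under 0.05 by limma over all 9223 genes. Among the 7446 genes detected on all arrays the background was 29.9% lower and 30.2% higher. The median change of the 5 was -0.83 on the log2 scale, against -0.0026 over those genes. From pre-DC to immature DC 4 of the 5 were lower, where the background was 24.9% lower and 25.3% higher, and from immature to mature DC 2 of 5 were lower, where it was 10.2% lower and 9.29% higher. Over all 9223 tested genes the shares were 30.4% lower and 30.8% higher from pre-DC to mature DC, 25.4% and 25.6% for the first step, and 11.1% and 10.5% for maturation. The other 2 tested kinases are described singly: Mapk11 entered the tests through the pre-DC arrays alone, and the Map2k6 probes did not agree on a direction. The stage steps share the arrays of their common stage, so their counts are not independent of each other. The call of Mapkapk3 from pre-DC to mature DC lay at the threshold (limma adjusted p = 0.0499). Those of Mapk14 at the first step (0.0428) and Map2k3 at maturation (0.0401) lay near it. None of these calls passed without a detection filter.

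**Figure D1:**
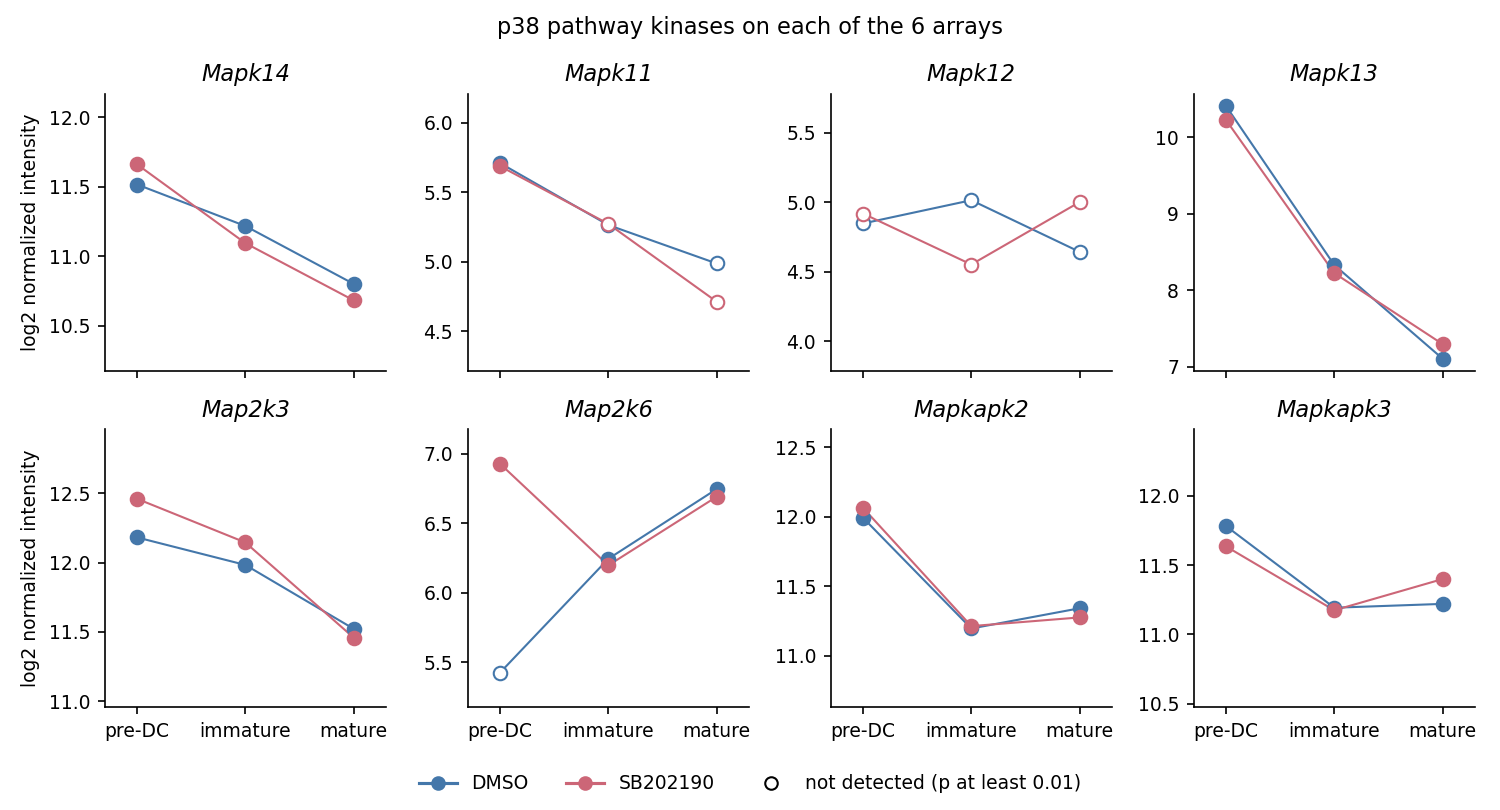
Level of each kinase on each of the 6 arrays, as log2 normalized intensity of its brightest detected probe (vertical axes, each with its own range) against stage (horizontal axis), with DMSO in blue and SB202190 in red. Hollow points were not detected. Mapk13 falls from 10.40 and 10.22 in pre-DC to 7.11 and 7.30 in mature DC, the 2 lines lie close together for most kinases, and they part at the pre-DC stage of Map2k6.

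Among the p38 kinases themselves, Mapk13 had the largest change of the 7 tested members. It encodes p38 delta, an isoform that SB202190 is known to inhibit poorly. Its log2 level was 10.40 with DMSO and 10.22 with SB202190 in pre-DC, 8.33 and 8.22 in immature DC, and 7.11 and 7.30 in mature DC. The 3 stages did not overlap, and within each stage the treatments differed by at most 0.19. The intensities as deposited were 1705 and 1526 in pre-DC, 457 and 402 in immature DC, and 214 and 225 in mature DC. Mapk13 fell by 2.04 ± 0.15 (SE, 2 arrays a stage) on the log2 scale from pre-DC to immature DC (4.11-fold, limma adjusted p = 4.05e-04) and by a further 1.07 ± 0.15 to mature DC (2.11-fold, adjusted p = 0.00786). Over both steps the fall was 8.65-fold (adjusted p = 7.39e-05), and only 1.42% of the tested genes had a lower difference. The second step was lost when the immature DC array with DMSO was left out (adjusted p = 0.0655).

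A second Mapk13 probe, detected on all 6 arrays, gave log2 levels of 10.13 and 10.05, then 8.07 and 8.16, then 6.94 and 7.10 in the same order. Its differences were -1.97 and -1.09 for the 2 steps, close to those of the brighter probe. The fall of Mapk13 moved with that of the neutrophil genes, whose summed intensity fell at each step, and with the 7 tested proliferation genes, all lower in mature DC than in pre-DC, with a summed intensity of 18077 and 18852 in pre-DC against 1951 and 1525 in mature DC. Macrophage genes were higher in mature DC than in pre-DC for 9 of 10 tested, but from immature to mature DC 4 of 10 were lower and 2 higher. The part of these cell types in the result was not tested.

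Mapk14 encodes p38 alpha, the broadly expressed isoform and the main target of SB202190. Its single probe read 11.52 with DMSO and 11.66 with SB202190 in pre-DC, 11.22 and 11.10 in immature DC, and 10.80 and 10.68 in mature DC. The 3 stages did not overlap and followed one order in both treatments. The difference was -0.43 ± 0.14 (SE) from pre-DC to immature DC (limma adjusted p = 0.0428), -0.41 ± 0.14 from immature to mature DC (adjusted p = 0.0853, not past the threshold) and -0.85 ± 0.14 from pre-DC to mature DC (1.80-fold, adjusted p = 0.00308). The first step did not pass when any 1 of the 6 arrays was left out (adjusted p of 0.0510 to 0.267), whereas the difference between pre-DC and mature DC passed in each of those fits.

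Mapk11 encodes p38 beta, the other isoform that SB202190 inhibits. Only the 2 pre-DC arrays detected it, at log2 levels of 5.71 with DMSO and 5.69 with SB202190. On the 4 later arrays its probe lay below the detection threshold, at 5.26 and 5.27 in immature DC and 4.99 and 4.71 in mature DC. Against the lowest detected signal the pre-DC level was at least 1.19-fold that of immature DC and at least 1.14-fold that of mature DC. No test is given, since the gene passed the filter only through the arrays where it was high. The other Mapk11 probe was detected on no array.

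Mapk12 encodes p38 gamma, an isoform known from skeletal muscle. None of its 3 probes was detected on any array, so no change is given. The lowest detection p of the brightest of them was 0.114, on the immature DC array with DMSO.

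The order of stages was thus pre-DC, immature DC, mature DC from high to low for both Mapk14 and Mapk13, and in neither gene did arrays of neighbouring stages overlap. The 2 steps of Mapk14 were of nearly equal size, on either side of the threshold, and the difference between them was not tested. Across the 6 arrays the Pearson correlation of Mapk14 with Mapk13 was 0.961. These arrays share their stages, and 1132 of 9222 genes correlated with Mapk13 at over 0.95. The 3 genes most like Mapk13 by this measure were Mrpl10, which encodes a mitochondrial ribosomal protein (0.9995), Lsm4, which encodes an RNA-binding splicing factor subunit (0.9994), and Fam107b (0.9994). Their log2 differences between pre-DC and mature DC were -0.43, -1.16 and -2.77.

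Mapk14 and Mapk13 are neighbours on chromosome 17 of the RefSeq table for GRCm38.p6, with 1 listed gene and no protein-coding gene between them, and Mapk11 and Mapk12 are neighbours on chromosome 15. Promoter windows, from 250 bases before to 50 after the outermost listed start, were taken from RefSeq (GRCm38.p6), and all 9 genes had one. The array files name no build. The windows of 4 genes are shown, for the neighbouring pair whose falls differed in size and for the pair of activators. They are Mapk14 (chr17:28691092-28691391, plus strand), Mapk13 (chr17:28769067-28769366, plus strand), Map2k3 (chr11:60931804-60932103, plus strand) and Map2k6 (chr11:110398852-110399151, plus strand). Each is written 5′ to 3′ with capitals at matches, on either strand, to the Sp1 motif GGGCGG or the AP-1 motif TGANTCA.
Mapk14: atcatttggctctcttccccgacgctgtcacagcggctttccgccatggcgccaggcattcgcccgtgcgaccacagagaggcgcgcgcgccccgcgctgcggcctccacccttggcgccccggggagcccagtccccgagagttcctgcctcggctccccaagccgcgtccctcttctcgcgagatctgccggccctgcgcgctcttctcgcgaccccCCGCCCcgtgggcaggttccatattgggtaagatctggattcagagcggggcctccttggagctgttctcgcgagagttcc
Mapk13: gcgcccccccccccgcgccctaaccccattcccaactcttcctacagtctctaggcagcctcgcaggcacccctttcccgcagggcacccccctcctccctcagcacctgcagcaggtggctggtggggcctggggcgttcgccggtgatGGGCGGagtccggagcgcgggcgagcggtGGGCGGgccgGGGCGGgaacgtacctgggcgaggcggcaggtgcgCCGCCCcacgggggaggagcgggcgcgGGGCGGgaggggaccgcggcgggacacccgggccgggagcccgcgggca
Map2k3: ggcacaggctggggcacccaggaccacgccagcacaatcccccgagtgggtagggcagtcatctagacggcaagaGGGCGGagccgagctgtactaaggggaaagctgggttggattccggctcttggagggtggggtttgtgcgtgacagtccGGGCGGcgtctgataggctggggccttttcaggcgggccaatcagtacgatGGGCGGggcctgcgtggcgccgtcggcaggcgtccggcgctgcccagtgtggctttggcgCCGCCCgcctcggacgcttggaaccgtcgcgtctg
Map2k6: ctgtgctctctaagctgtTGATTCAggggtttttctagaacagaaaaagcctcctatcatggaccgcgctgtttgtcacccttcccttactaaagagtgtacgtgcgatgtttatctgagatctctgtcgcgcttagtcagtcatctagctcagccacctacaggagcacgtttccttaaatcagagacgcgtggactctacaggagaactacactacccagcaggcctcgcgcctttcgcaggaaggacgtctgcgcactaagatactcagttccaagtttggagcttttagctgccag

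The Sp1 motif had 5 matches in the Mapk13 window, 4 in that of Map2k3 and 1 in that of Mapk14, and none in that of Map2k6. The Map2k6 window held the only AP-1 match among the 9 genes. At least 1 Sp1 match was present in 6 of the 9 windows, against 35.9% of 27018 windows, and an AP-1 match in 1 of 9, against 7.92%. The PU.1 motif GAGGAA matched in 1 of 9 (Mapkapk2), against 28.3%. The E-box CACGTG matched in 1 of 9 (Mapk12), against 7.24%, and the C/EBP motif TTGCNNAA in 0 of 9, against 10.7%. No match of one motif overlapped that of another in these windows. GC content was 78% for Mapk13, 68.7% for Mapk14, 68% for Map2k3 and 50% for Map2k6, with a median of 66% over the 9 genes and 52.7% over all windows. These matches describe the letters of the windows and say nothing of binding.

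Of the 2 activators, Map2k3 was lower in mature DC than in pre-DC, while the Map2k6 probes did not agree on a direction. The difference between the 2 genes was not tested. Map2k3, which encodes MKK3, was detected on every array with its single probe, at log2 levels of 12.18 with DMSO and 12.46 with SB202190 in pre-DC, 11.98 and 12.14 in immature DC, and 11.52 and 11.46 in mature DC. The mature DC arrays lay below all others, while immature DC with SB202190 lay just below pre-DC with DMSO. The difference from pre-DC to immature DC was -0.26 ± 0.14 (SE), with a 95% interval of -0.61 to 0.09 (limma adjusted p = 0.181). From immature to mature DC Map2k3 fell by 0.57 ± 0.14 (1.49-fold, adjusted p = 0.0401), and from pre-DC to mature DC by 0.83 ± 0.14 (1.78-fold, adjusted p = 0.00378). The fall at maturation did not pass without the immature DC array with DMSO (adjusted p = 0.203), that with SB202190 (0.201), the mature DC array with DMSO (0.0692) or that with SB202190 (0.176).

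Map2k6 encodes MKK6, the other main activator of p38. Its log2 level was 5.42 with DMSO and 6.93 with SB202190 in pre-DC, 6.24 and 6.20 in immature DC, and 6.75 and 6.69 in mature DC. The pre-DC array with DMSO was the lowest and the only one without detection, at a detection p of 0.0128, just above the limit, and the pre-DC array with SB202190 was the highest. In the immature and mature pairs the treatments lay close together. With DMSO, after background correction, this probe was at least 1.74-fold higher in immature DC and at least 2.47-fold higher in mature DC than in pre-DC. With SB202190 the same differences were -0.73 and -0.24 on the log2 scale. Pooled over treatments they were 0.04 ± 0.39 (SE, adjusted p = 0.933) and 0.54 ± 0.39 (adjusted p = 0.276), with a larger error than the 0.12 to 0.15 of the other members. The other 2 probes were dimmer and read the other way over both treatments. Their differences from pre-DC were -0.21 and -0.29 in immature DC and -0.25 and -0.51 in mature DC. These differences rest partly on values below the detection limit. The first of these probes was detected on 3 arrays, and the second on 2, neither of them mature DC. With DMSO alone the first read 5.11 in pre-DC, 5.35 in immature DC and 5.45 in mature DC, and the second 5.28, 5.59 and 5.25. Neither probe was detected in pre-DC with DMSO. The direction of the first step of the brightest probe turned on which pre-DC array was left out: it was -0.73 (adjusted p = 0.0184) without the DMSO array and 0.82 (adjusted p = 0.0120) without the SB202190 array.

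The gene most like Map2k6 over the 6 arrays was Nfrkb, which encodes a subunit of the INO80 chromatin remodelling complex, with a Pearson correlation of 0.992. It was the only one of 9222 genes over 0.95. Rhbdl2, which encodes a rhomboid protease, and Fa2h, which encodes a fatty acid hydroxylase, followed at 0.912 and 0.911. Their levels spanned 0.36, 0.54 and 0.73 on the log2 scale, against 1.50 for Map2k6. The Pearson correlation of Map2k6 with Map2k3, the other activator, was -0.27.

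Both measured substrate kinases were lower in immature DC than in pre-DC, and neither passed the test at maturation. Mapkapk2 encodes MK2, which phosphorylates the RNA-binding protein tristetraprolin. Its log2 level was 11.99 with DMSO and 12.06 with SB202190 in pre-DC, 11.20 and 11.21 in immature DC, and 11.34 and 11.28 in mature DC. The pre-DC pair stood apart from the other 4 arrays. Mapkapk2 fell by 0.82 ± 0.12 (SE) from pre-DC to immature DC (1.77-fold, limma adjusted p = 0.00352), and the mature DC remained 0.72 ± 0.12 below pre-DC (1.65-fold, adjusted p = 0.00400). From immature to mature DC the difference was 0.10, with a 95% interval of -0.20 to 0.41 (adjusted p = 0.588).

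Mapkapk3 encodes MK3, a close relative of MK2 with overlapping substrates. Its brightest probe read 11.78 with DMSO and 11.63 with SB202190 in pre-DC, 11.19 and 11.17 in immature DC, and 11.22 and 11.40 in mature DC. The pre-DC pair was again the highest, although the mature DC array with SB202190 lay closer to it. The fall to immature DC was 1.44-fold (log2 difference -0.52 ± 0.14 SE, limma adjusted p = 0.0244), and the difference between pre-DC and mature DC was -0.40 ± 0.14 (1.32-fold, adjusted p = 0.0499). The latter lay at the threshold and did not pass when any 1 of the 6 arrays was left out (adjusted p of 0.0528 to 0.277). The former did not pass without the pre-DC array with DMSO (adjusted p = 0.145), the immature DC array with DMSO (0.117) or that with SB202190 (0.147). From immature to mature DC the difference was 0.13, with a 95% interval of -0.22 to 0.47 (adjusted p = 0.554).

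The 3 Mapkapk3 probes were detected on all 6 arrays and differed in the size of the change. A second probe gave 11.54 and 11.11 in pre-DC, 10.71 and 10.58 in immature DC, and 10.56 and 10.67 in mature DC, a difference of -0.71 from pre-DC to mature DC. The third, annotated to the transcript AK078977, gave 9.93 and 9.91, then 8.43 and 8.02, then 8.37 and 8.27, a difference of -1.60. All 3 thus placed both pre-DC arrays above the other 4.

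**Figure D2:**
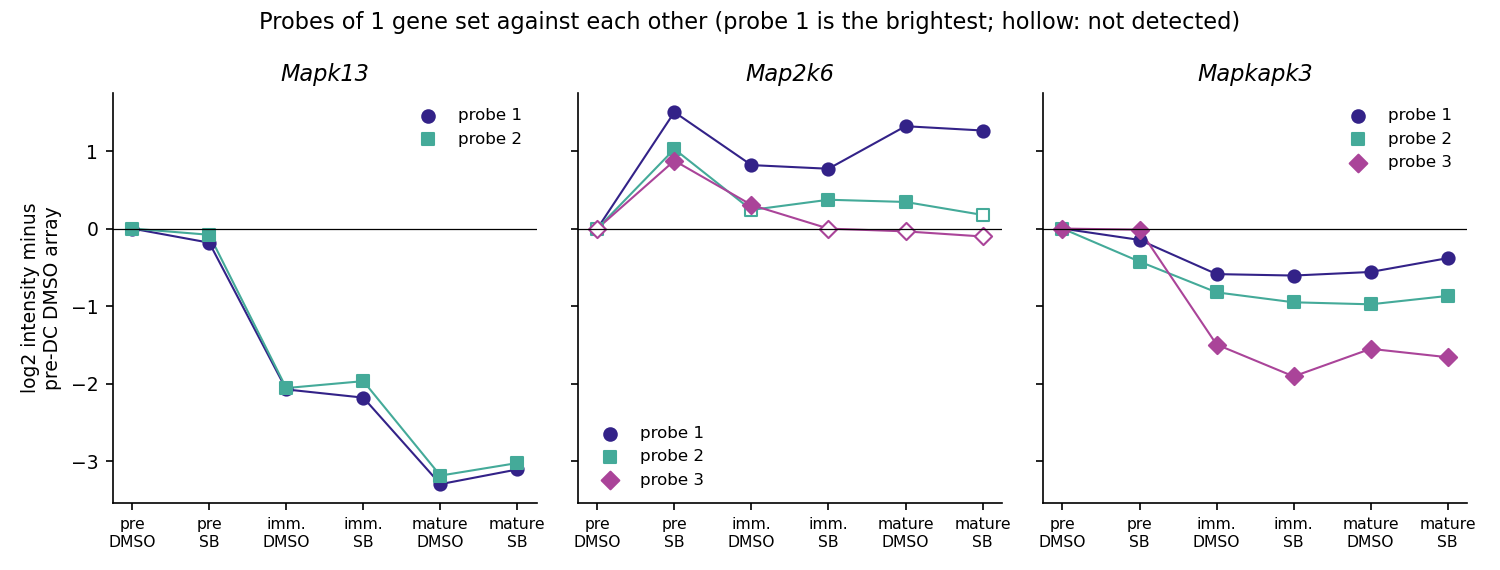
Probes of the 3 detected genes with more than 1 detected probe, drawn as log2 normalized intensity minus that on the pre-DC DMSO array (vertical axis) on each of the 6 arrays (horizontal axis). Hollow symbols were not detected. The 2 Mapk13 probes nearly coincide, the 3 Map2k6 probes share a peak at pre-DC with SB202190 and part in mature DC, and the 3 Mapkapk3 probes differ by -0.40, -0.71 and -1.60 between pre-DC and mature DC.

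**Figure D3:**
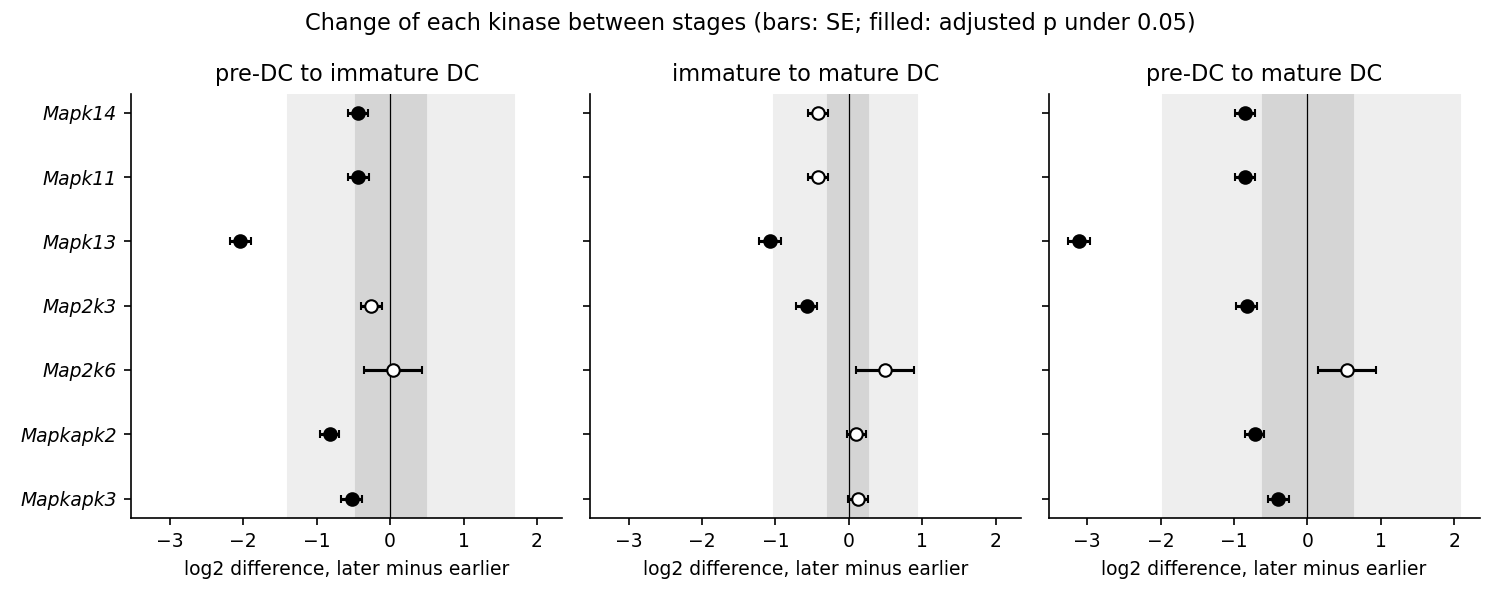
Log2 difference of each tested kinase between stages (horizontal axis, later minus earlier stage, over both treatments) with its standard error. Filled points passed an adjusted p of 0.05, and the dark and light bands hold the middle 50% and 90% of all 9223 genes. Mapk11 is drawn as fitted, but it was detected in pre-DC alone, so its filled points are not counted as a result. Mapk13 lies outside the light band at both steps and over the whole course, at -2.04, -1.07 and -3.11.

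SB202190 itself was compared with DMSO across the 3 stages. None of the 7 tested kinases passed, and the same was true of all 9223 genes (0% called by limma; 855 genes had an unadjusted p under 0.05, and 1 gene passed with trend and robust moderation). The residual of this fit is how the difference varies between stages, so a response in 1 stage counts as error. The 95% interval of the log2 difference was -0.31 to 0.24 for Mapk14, -0.33 to 0.26 for Mapk13, -0.16 to 0.41 for Map2k3, -0.24 to 0.26 for Mapkapk2 and -0.28 to 0.29 for Mapkapk3. These 5 genes were detected on every array and all 5 intervals include 0. Map2k6 differed by 0.47 ± 0.32 (SE), with an interval of -0.33 to 1.26 (adjusted p = 0.656). Mapk11 differed by -0.10, with an interval of -0.37 to 0.18, although it was detected on 1 array of each treatment only.

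Within a stage there was 1 array a side and so no test. A gene was counted there when it was at least 1.5-fold apart. In pre-DC, 1 of 7 measured kinases was past that fold, where 1.99% of 8893 genes were higher and 2.58% lower. In immature DC it was 0 of 6, where 4.41% of 8957 genes were higher and 4.48% lower, and in mature DC 0 of 6, where 5.44% of 8948 were higher and 6.41% lower.

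The kinase past the fold in pre-DC was Map2k6, at least 2.80-fold higher with SB202190 than with DMSO. Its deposited intensity, before correction, was 164 with DMSO and 259 with SB202190, a smaller ratio, against 179 to 198 on the other 4 arrays. The second Map2k6 probe read 5.11 with DMSO and 6.13 with SB202190 in pre-DC, and the third 5.28 and 6.16. Both were likewise detected there with SB202190 and not with DMSO. Their log2 differences were 1.03 and 0.88, smaller than the 1.50 of the brightest probe. In immature and mature DC the difference of the brightest probe was -0.05 and -0.06. Whether the response of Map2k6 differs between stages could not be tested with 1 array for each stage and treatment. In the same pair of arrays the summed DC genes were 34323 with DMSO and 45391 with SB202190, and Zbtb46, a transcription factor of classical DC, went from not detected at 5.44 to detected at 6.50. Other genes of that list were lower with SB202190, among them Fscn1 (7.73 against 5.48), Cd83 (9.24 against 7.02), Cd86 (9.20 against 8.87) and Ccr7 (5.87 against 4.95, not detected). The bright MHC class II genes Cd74 and H2-Ab1, which weigh most in the sum, were higher, at 14.04 against 14.43 and 13.60 against 14.10. Their part in the Map2k6 difference was not tested.

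The largest difference of the other members in pre-DC was 0.28 for Map2k3, and Mapk14 was 0.14 higher with SB202190. In immature DC Mapk14 differed by -0.12, Mapk13 by -0.11 and Map2k3 by 0.16. In mature DC Mapk13 was 0.19 higher with SB202190, Mapkapk3 0.18 higher and Mapk14 0.12 lower. The median size of the difference over all genes was 0.14, 0.19 and 0.21 in the 3 stages. In pre-DC Map2k3 lay above that median and Mapk14 near it. The differences named here for immature and mature DC were smaller than the median size of their stage.

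**Figure D4:**
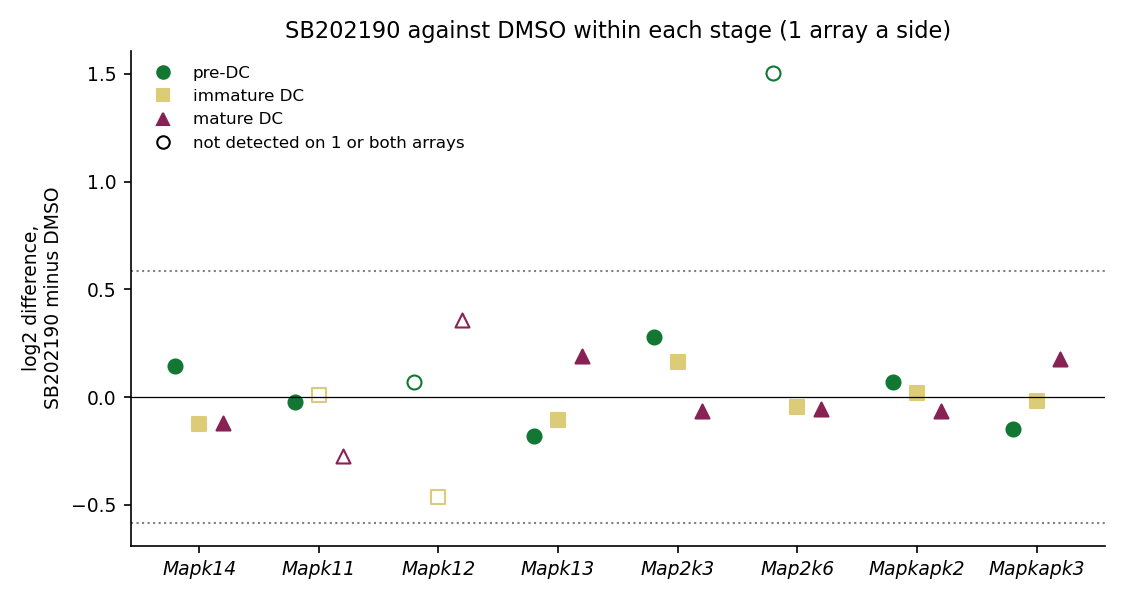
Log2 difference between the SB202190 and the DMSO array of the same stage (vertical axis) for the 8 kinases with a probe, with the stage shown by symbol and dotted lines at 1.5-fold. Hollow symbols were not detected on 1 or both arrays. Map2k6 in pre-DC stands at 1.50, and every other point lies between the dotted lines.

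The rest of the pathway, in lists chosen with earlier results of these data known, moved in both directions between pre-DC and mature DC, where 30.8% of all tested genes were higher and 30.4% lower. Some listed genes were called with one side below detection. The counts include those genes, which entered the tests only through arrays of stages where they were high. A median is also given with such genes set at their bound where that moves it. Of 21 tested upstream MAP3 kinases and adaptors, 6 rose and 2 fell, against 30.8% and 30.4% of all genes. Their median was 0.21 on the log2 scale, and 1 of the 2 that fell was not detected in mature DC. Gadd45b, a stress-inducible activator of the MAP3 kinase MEKK4, rose by 2.72 (limma adjusted p = 2.09e-04), Map3k1 by 1.67 (adjusted p = 7.42e-04) and Spag9, a scaffold of the p38 and JNK cascades, by 1.60 (adjusted p = 4.10e-04). Map3k5, which encodes the oxidant-responsive ASK1, fell by 0.95 (adjusted p = 0.00189). Of 8 tested MAP kinases and MAP2 kinases of other branches, 3 rose and 2 fell, against the same background. Their median was 0.32 (0.18 at the bound), and 1 of the 3 that rose was not detected in pre-DC. Mapk8, which encodes JNK1, rose by 0.62 (adjusted p = 0.00887), and Mapk6, which encodes ERK3, fell by 1.16 (adjusted p = 8.96e-04).

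Other than the MK kinases, 17 genes listed as substrates of p38 or of kinases it activates were tested. Of these, 3 rose and 7 fell, against a background of 30.8% higher and 30.4% lower. Their median was -0.17, and 1 of the 7 that fell was not detected in mature DC. Zfp36l1 rose by 1.69 (limma adjusted p = 3.02e-04) and Zfp36 by 1.55 (adjusted p = 0.00118), and both encode proteins of the tristetraprolin family, which destabilise AU-rich transcripts. Eef2k, a kinase of translation elongation factor eEF2, was at least 3.53-fold lower in mature DC, where it was not detected. No p is given for Eef2k, since it passed the filter only through stages where it was high. The transcription factor Mef2c fell by 2.03 (adjusted p = 0.00126). Of 9 tested phosphatases that act on p38, 3 rose and 3 fell, near that background, with a median of -0.33 (-0.051 at the bound). The dual-specificity phosphatases Dusp1, Dusp4 and Dusp16 rose by 2.55, 1.60 and 1.58 (adjusted p of 2.45e-04 to 3.96e-04), while Dusp2 fell by 2.23 (adjusted p = 0.00326).

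Of 11 tested AU-rich transcripts that MK2 and tristetraprolin are known to regulate, 6 rose and 4 fell, against 30.8% and 30.4% of all genes. Their median was 1.31 (1.19 at the bound), and 2 of the 6 that rose were not detected in pre-DC. Cxcl1, a neutrophil chemoattractant, was not detected in pre-DC and was at least 43.3-fold higher in mature DC. No p is given for it, since it passed the filter only through stages where it was high. Il1a rose by 4.59 (limma adjusted p = 1.07e-04) and Il1b by 3.96 (adjusted p = 6.17e-05). Tnf fell by 2.29 (adjusted p = 1.41e-04) and Ccl4 fell by 2.20 (adjusted p = 3.79e-04). Across treatment 0 of the 11 passed. Their median was -0.29, with 9 of 11 below 0, against a median of 0.0065 over all genes. Of all tested genes, 49.5% lay below 0.0046. The lowest of the 11 were Cxcl2 at -0.68 ± 0.27 (SE, adjusted p = 0.533) and Il1a at -0.46 ± 0.20 (adjusted p = 0.547). The log2 level of Cxcl2 was 8.54 with DMSO and 7.22 with SB202190 in pre-DC. It was 8.54 and 7.68 in immature DC, and 10.20 and 10.33 in mature DC. Il1a read 6.30 and 5.86, then 8.66 and 7.68, then 10.65 and 10.70. In mature DC both were thus no lower with SB202190. In the other 4 lists the treatment medians lay between -0.02 and 0.12, and 0 genes passed. Dusp4, at 0.53 ± 0.12, had the smallest adjusted p of its list, 0.445.

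**Figure D5:**
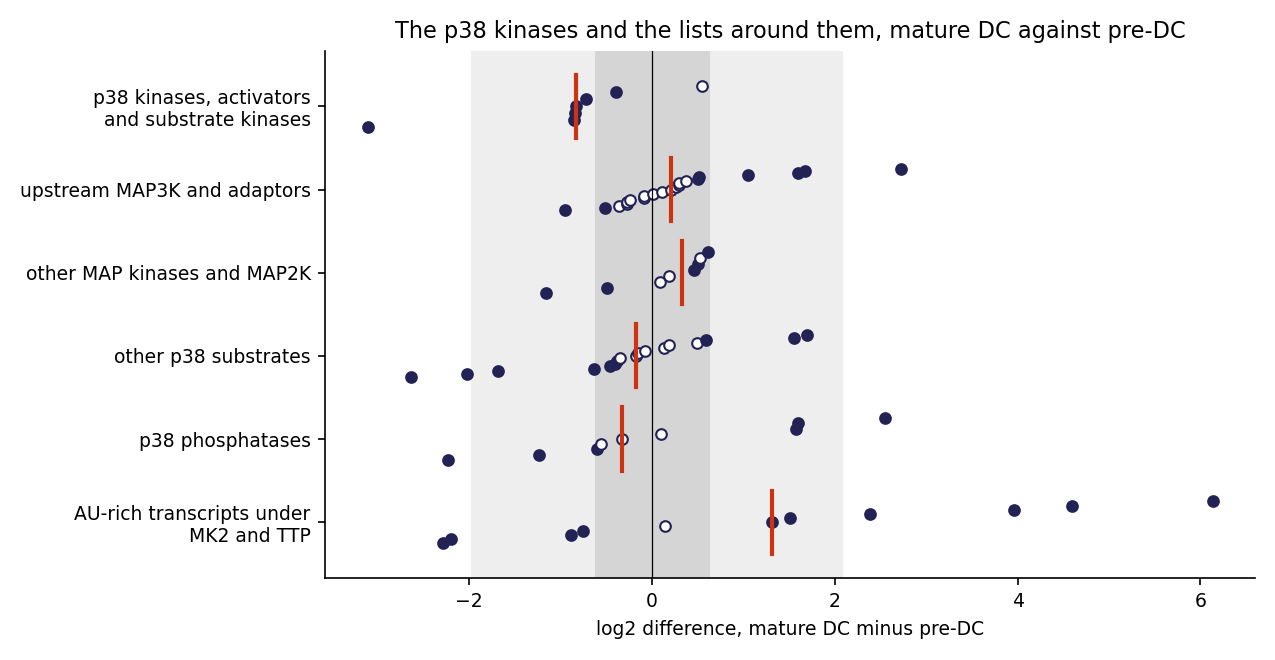
Log2 difference between mature DC and pre-DC (horizontal axis, over both treatments) of the 7 tested p38 module kinases and of the genes of 5 lists around them, 1 point a gene. Filled points passed an adjusted p of 0.05, red bars are medians, and the dark and light bands hold the middle 50% and 90% of all 9223 genes. Points are fitted differences, also for genes below detection on one side. Mapk11 is one of these, and its filled point is not counted as a result. The module's median is -0.83, and the other medians lie between -0.33 and 1.31. With Mapk11 set at its bound, the middle value of the module is that of Mapkapk2, -0.72.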

How the data were processed

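The authors deposited, per the file headers, mean bead intensity values that were not normalized and a detection p-value for each of 45281 probes on 6 arrays. They also deposited processed intensity values, made by a method that no source used here states, which served as an alternative. Intensities were background-corrected with normexp on the detection p-values (limma 3.58.1, R 4.3.3) with an offset of 16, then quantile normalized and log2-transformed. Platform annotation named 34885 probes with 1 gene, 18 with several (unused) and 10378 with none here. Genes detected (p under 0.01) on at least 2 arrays were fitted with stage and treatment as additive terms (2 residual and 3.73 prior degrees of freedom), moderated by eBayes and adjusted by Benjamini-Hochberg, with a threshold of 0.05, after tests on simulated data. Within a stage, genes detected on at least 1 of both arrays were counted at 1.5-fold. Where one side was not detected, the fold is a bound against the dimmest detected probe's signal or, if higher, the undetected probe's own. Such a bound holds for the corrected values with that offset, not for the deposited intensities. Alternatives changed the background, offset, scaling, probe choice, filters, moderation, block and arrays.

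Named genes are all members, for each list up to 3 per direction with the largest change past the threshold and the 2 highest and 2 lowest across treatment, and the 3 most correlated genes of members that range over at least 1. Members and lists were chosen with earlier results of these data known.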

Additional observations from a re-analysis of the deposited data

How the results depend on the processing

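Over the settings that changed 1 choice and among the members detected on all arrays, the calls of Mapk13 and Mapkapk2 from pre-DC to immature DC, and of Mapk14, Mapk13, Map2k3 and Mapkapk2 from pre-DC to mature DC, kept their direction and passed in each. The cause of the changes below was not tested, and counts of members below include Mapk11. Without a detection filter 3 members passed at the first step (Mapk13, Mapkapk2 and Mapkapk3), where 2146 of 19057 genes were higher and 2097 lower. At maturation 1 passed without a filter (Mapk13), where 741 genes were higher and 783 lower. With detection at p under 0.05 the same 3 passed at the first step, where 2300 of 10317 genes were higher and 2285 lower. Mapkapk3 from pre-DC to mature DC had adjusted p-values of 0.0631 with the processed values of the authors, 0.0838 without a filter and 0.0595 with the looser detection. Mapk14 from immature to mature DC passed without background correction (0.0281), with offset 50 (0.0494) and with trend and robust moderation (0.0316). Mapk14 from pre-DC to immature DC did not pass with the processed values (0.0545), without a filter (0.0723) or with the looser detection (0.0521). Map2k3 at maturation did not pass with the processed values (0.0597) or without a filter (0.0644). In genes detected on all 6 arrays, which leaves out Map2k6, 0 members passed 1.5-fold in pre-DC. At 2-fold, 54 genes passed in pre-DC, 102 in immature DC and 171 in mature DC.

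Map2k6 from pre-DC to immature DC turned to -0.027 without background correction, -0.012 with offset 50 and -0.15 with the mean of its probes, which also turned its difference from pre-DC to mature DC to -0.073. Across treatment, 75th percentile scaling gave -0.0072 for Mapkapk2 and -0.0013 for Mapkapk3, and the mean of probes gave 0.012 for Mapk13 and -0.11 for Mapkapk3. Without the pre-DC pair the treatment difference was 0.042 for Mapk13, -0.051 for Map2k6 and -0.024 for Mapkapk2, and 41 genes passed. Without the immature DC pair it was 0.013 for Mapk14 and 0.0040 for Mapk13, and without the mature DC pair 0.011 for Mapk14 and -0.082 for Mapkapk3. Trend and robust moderation called 1 gene.

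For the treatment, leaving out 1 array repeats the fit without its pair, since an array without its partner adds nothing to the difference. It is thus no further check. With 1 array left out in turn, the treatment called 0 to 41 genes, and its difference ran from -0.12 to 0.013 for Mapk14, -0.14 to 0.042 for Mapk13, -0.051 to 0.73 for Map2k6, -0.024 to 0.045 for Mapkapk2 and -0.082 to 0.080 for Mapkapk3. From pre-DC to immature DC 2588 to 4708 genes and 2 to 4 members passed, and Map2k6 ran from -0.73 to 0.82. From immature to mature DC 573 to 2545 genes and 0 to 3 members passed, and Mapkapk3 ran from -0.0044 to 0.26. From pre-DC to mature DC Map2k6 ran from -0.24 to 1.32. The 3 members at most included Map2k6, which passed without either pre-DC array (adjusted p = 0.0409). Genes near the detection limit, here Mapk11, Mapk12 and Map2k6, have the least signal over background, and their differences are the least certain.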
